A study of Mus musculus with 33 samples.

Results

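Core spliceosome genes were described here across mouse motoneuron cultures labelled as knockdowns of hnRNP R or of the noncoding RNA 7SK, and across the RNAs crosslinked to hnRNP R. Members were the genes whose symbols begin with Snrp, Sf3a, Sf3b or Prpf, or with Lsm and a digit, leaving out pseudogenes. This gave 45 of 37926 gene records in the RNA tables and 44 of 36194 genes in the iCLIP files. Together these were 46 genes, of which 43 were in both kinds of file. Lsm8 was matched in the iCLIP files alone, and Lsm5 and Snrpe in the RNA tables alone. By role they were 7 genes of the Sm ring, its neuronal relative Snrpn, 5 genes of U1, 10 of U2, 10 of the tri-snRNP and the catalytic steps, Lsm1 to Lsm8, and 5 other Lsm genes.

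Primary motoneurons of CD-1 mice had been grown in microfluidic chambers, in which axons grow into a compartment of their own, and total RNA of axons and of the somatodendritic side was sequenced. On each side the RNA-seq groups were hnRNP R knockdown with 3 libraries, 7SK knockdown with 4 and a GFP control with 4, and both knockdowns were set against the same control. The labels give no method for the knockdowns. A further 11 libraries came from iCLIP, which counts cDNAs ending where a protein was crosslinked to RNA. With antibody 1 against hnRNP R there were 2 libraries of wildtype motoneurons, 2 of the motoneuron-like mouse cell line NSC34, and 1 nuclear and 1 cytoplasmic library of each cell type. Antibody 2 gave 1 nuclear and 1 cytoplasmic library of NSC34 cells, and IgG gave 1 control library of NSC34 cells.

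The spliceosome removes introns from pre-mRNA and is assembled anew on each intron from small nuclear ribonucleoproteins (snRNPs), each a small nuclear RNA with its proteins. Sm proteins form a ring around the RNAs of U1, U2, U4 and U5, whereas a ring of Lsm proteins holds the end of U6. U1 recognises the start of the intron, U2 with its SF3a and SF3b proteins recognises the branch point, and the tri-snRNP of U4, U6 and U5 brings in the catalytic centre. In motoneurons this machinery is known from spinal muscular atrophy, in which the SMN complex that loads Sm rings is deficient. 7SK, in turn, keeps P-TEFb, a kinase of transcription elongation, inactive.

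The RNA groups had limits that touch every result below. Each group had a single FPKM value (expression normalised for transcript length and read depth) in the authors' deposited tables, so no spread between libraries could be computed and the read depth is unknown. Against its label, the axon group labelled 7SK knockdown had 3508 FPKM of Rn7sk and control axons 2708 FPKM in the authors' deposited table, whereas on the somatodendritic side it was at 6370 FPKM in the knockdown and 9104 FPKM in the control (authors' q = 0.00407). Hnrnpr was at 3.98 FPKM in hnRNP R knockdown axons and 9.93 FPKM in control axons (not tested), and at 10.8 and 27.2 FPKM in knockdown and control cell bodies in the authors' deposited tables (q = 0.310). The descriptions of the 3 hnRNP R knockdown libraries of cell bodies also list the 7SK table of that side, and that of 1 axon library labelled 7SK knockdown lists the hnRNP R table of cell bodies, so groups were taken from the titles and the group names inside the tables. Of 9 motoneuron markers 8 were found, with summed levels of 0.208 to 2.35 FPKM in the knockdown groups and 3.19 to 5.46 FPKM in the controls, and Chat, Isl2 and Mnx1 were listed at 0 in every group in the authors' deposited tables. An FPKM of 0 can be a failed estimate. The summed FPKM of 15 microglial and macrophage markers was 194 in the axon group labelled 7SK knockdown and 20.6 in control axons, and that of 9 fibroblast markers was 248 and 588, from the authors' deposited table. In hnRNP R knockdown and control axons, microglial and macrophage markers summed to 42.25 and 20.06 FPKM, and fibroblast markers to 703.1 and 570.1 FPKM. Schwann cell markers there summed to 18.14 and 8.515 FPKM, and astrocyte and radial glia markers to 742.7 and 713.9 FPKM. Oligodendrocyte markers were at 45.91 and 23.99 FPKM in axons and 120.3 and 83.51 FPKM in cell bodies. In these cell bodies the microglial, fibroblast and Schwann cell sums were below control. The part of these other cells in the members' values was not tested. In bulk RNA, fewer cells of a type and less RNA per cell cannot be told apart.

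The promoters of the members were looked at for shared sequence, using RefSeq promoter sequences of build GRCm38.p6 that reach 250 bases upstream of a gene's first listed start, which matched 37 members. The motif CCGGAAG, the core of sites for Ets family factors, lay on either strand in 11 of the 37 (29.7%), against 13.7% of 9370 promoters of genes at 1 FPKM or more on the somatodendritic side and 7.05% of all 27025 promoters. TATAAA lay in 2 of 37 (5.41%), against 5.90% of the promoters of expressed genes and 13.0% of all. CCAAT was present in 43.2% of member promoters, against 36.6% of the expressed, and the GC box GGGCGG in 54.1%, against 60.9%. Members therefore held the Ets motif at a higher share and the other 3 motifs at shares near those of expressed genes, as a description without a test. Of the 11, 5 are printed as examples on different strands and at different distances from the start, 5′ to 3′ on the gene's strand with the motif or its reverse complement in capitals. They are Sf3a3 (chr4:124714760-124714789, plus strand), Sf3b2 (chr19:5295458-5295487, minus strand), Sf3b3 (chr8:110847014-110847043, minus strand), Prpf4b (chr13:34875447-34875476, plus strand) and Snrpg (chr6:86371384-86371413, plus strand).
Sf3a3: cccccaagacaCTTCCGGgacacgcggaac
Sf3b2: cgggacgtggattacgcaaCCGGAAGtttc
Sf3b3: cccggtgggcgCTTCCGGgcttgcgaggtc
Prpf4b: gccccctagccCCGGAAGttacgttccgcg
Snrpg: tggcgacgcaaCCGGAAGcgtggctctggt
Counted from the listed start, the last base of the motif lay at position -5 in Sf3b2 and at -223 in Sf3b3, so its place was not fixed.

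In control cultures nearly the whole set was expressed on both sides. In control axons 43 of 45 members, and in control cell bodies 44 of 45, reached 1 FPKM in the authors' deposited tables, against 31.5% and 33.1% of all records. The median member was at 11.7 FPKM in control axons and 13.1 FPKM in control cell bodies, whereas the median of all genes at 1 FPKM or more was 5.70 and 7.25 FPKM in the same authors' deposited tables. Snrpn, which encodes the neuronal Sm protein SmN, was the most abundant member in every group, with 54.9 FPKM in control axons and 282 FPKM in control cell bodies in the authors' deposited tables. Its record is merged with Snurf, which lies on the same transcript, so the values belong to both, and fragments shared with its near paralog Snrpb could be assigned to either. After it in control axons came Prpf8, the scaffold of the catalytic centre (43.1 FPKM), and the Sm proteins Snrpd3 (36.6 FPKM) and Snrpd2 (29.5 FPKM), as listed in the authors' deposited table.

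Between the control compartments the order of the members was largely kept. Across the 45 members Spearman's rho between axonal and somatodendritic control levels was 0.918, as a description across genes. A lower level in axons was found for 37 of 45 members, with a median log2 ratio of axons over cell bodies of -0.37 with 0.1 FPKM added, against -0.58 over all 13576 genes at 1 FPKM or more, of which 29.5% were higher in axons. These tables were scaled separately, so levels set across them carry that limit. Snrpn differed most among well expressed members, with a log2 ratio of -2.36. Lsm3, of the ring on U6, was at 20.3 FPKM in control axons and 53.5 FPKM in control cell bodies in the authors' deposited tables (log2 ratio -1.39). In contrast, Sf3b5, a small SF3b subunit, was at 23.1 FPKM in axons and 11.5 FPKM in cell bodies (log2 ratio 1.01), and Snrpb, the common Sm protein B, at 20.5 and 12.6 FPKM (log2 ratio 0.70) in the authors' deposited tables. Together the members made up 0.129% of all FPKM in control axons and 0.204% in control cell bodies, and of their sums of 628 and 1027 FPKM Snrpn held 54.9 and 282 FPKM in the authors' deposited tables.

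**Figure D1:**
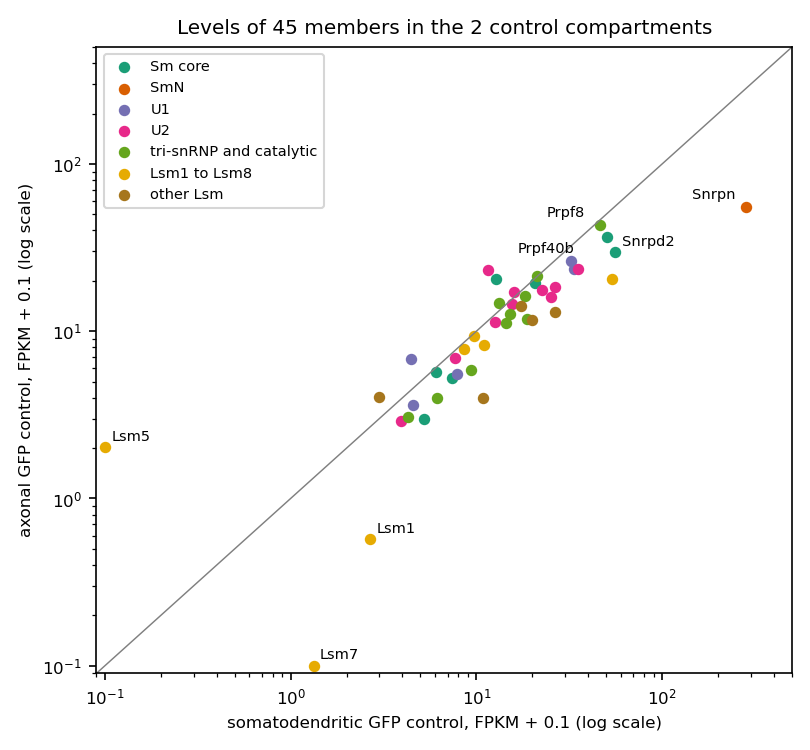
FPKM plus 0.1 of the 45 members in axonal (y axis) and somatodendritic (x axis) GFP controls on log scales, coloured by role, with 1 point per gene and the line of equal levels. Most points lie a little under the line, and Snrpn lies far under it, at 54.9 FPKM in axons and 282 FPKM in cell bodies.

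The comparison of hnRNP R knockdown axons with control axons asked which axonal RNAs change when hnRNP R is reduced. No member was called at the authors' q under 0.05, and none of the 12 tested members had an unadjusted p under 0.05 in the authors' deposited table. Over all genes, 0.114% of 1749 tested were called and 9.26% had an unadjusted p under 0.05. The other 33 members carried no test. Taking the higher of both groups for each gene, the lowest tested gene was at 21.8 FPKM in the authors' deposited table. Among the 44 members at 1 FPKM or more in either group 25 had a ratio above 0, with a median log2 ratio of 0.13, against 51.3% and a median of 0.03 over all 13119 such genes. The lowest q over the members was 0.606, for Snrpd2.

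Within this comparison the tested members with the highest ratios were Prpf3, a U4/U6 protein, and Snrpd2. Prpf3 was at 26.3 FPKM in hnRNP R knockdown axons and 11.7 FPKM in control axons in the authors' deposited table (log2 ratio 1.17, p = 0.183). Snrpd2 was at 56.4 FPKM in knockdown axons and 29.5 FPKM in control axons in the authors' deposited table (log2 ratio 0.94, p = 0.0693). Next came Sf3b5 with 35.9 FPKM against 23.1 FPKM, Snrpn with 82.9 FPKM against 54.9 FPKM and Snrpe, the Sm protein E, with 23.9 FPKM in knockdown against 19.3 FPKM in control axons in the authors' deposited table, all with p above that of Prpf3. Only Prpf8 and Sf3b2 had a ratio below 0 among the 12, with 31.8 and 21.0 FPKM in knockdown axons against 43.1 and 23.4 FPKM in control axons in the authors' deposited table. Of the tri-snRNP and catalytic genes 4 of 10 had a ratio above 0, and of the Sm ring 5 of 7.

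The axon group labelled 7SK knockdown was set against the same control axons. No member was called among 6 tested, against 3.07% of 1009 tested genes in the whole table (lowest tested level 35.5 FPKM, taking the higher of both groups). At an unadjusted p under 0.05 there were 2 members, both higher in the group labelled 7SK knockdown, against 18.1% of all tested genes (13.6% higher). These were Lsm2, a subunit of both Lsm rings, at 36.5 FPKM in the group labelled 7SK knockdown and 9.55 FPKM in control axons (log2 ratio 1.93, p = 0.0378, q = 0.236), and Snrpd2 at 76.6 FPKM and 30.3 FPKM (log2 ratio 1.34, p = 0.0170, q = 0.157), in the authors' deposited table. Microglial marker sums of 194 FPKM in this group and 20.6 FPKM in control axons stand beside these values. Among the other tested members Sf3b5 was at 44.8 FPKM against 23.8 FPKM (p = 0.115), Snrpn at 77.8 FPKM against 56.4 FPKM (p = 0.550), Snrpd3 at 48.7 FPKM against 37.7 FPKM (p = 0.502) and Prpf8 at 42.8 FPKM against 44.2 FPKM (p = 0.908), with the group labelled 7SK knockdown first, in the authors' deposited table. Over all 45 members 23 had a ratio above 0 and the median log2 ratio was 0.09, against 52.8% and 0.07 over all genes at 1 FPKM or more.

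On the somatodendritic side hnRNP R knockdown was compared with control cell bodies. None of 17 tested members was called, against 0.975% of 2768 tested genes, and 3 had an unadjusted p under 0.05, 1 higher and 2 lower, against 12.3% of all tested (5.74% higher and 6.54% lower). Lsm2 was at 23.7 FPKM in the knockdown and 9.57 FPKM in the control (log2 ratio 1.31, p = 0.0119, q = 0.267) in the authors' deposited table. Lsm3 was at 34.3 FPKM in the knockdown and 53.5 FPKM in the control (log2 ratio -0.64, p = 0.0345, q = 0.337), and Snrpd3, the Sm protein D3, at 31.6 and 50.3 FPKM (log2 ratio -0.67, p = 0.0440, q = 0.375) in the authors' deposited table. Lsm2 and Lsm3, which sit in the same ring, therefore lay on opposite sides of 0, and of the 7 genes Lsm1 to Lsm7 4 had a ratio above 0. Further members at the ends of the range were Sf3a3, an SF3a subunit, at 24.1 FPKM in the knockdown against 15.8 FPKM in the control (p = 0.108), and Prpf6, a bridge of the tri-snRNP, at 21.7 against 15.1 FPKM (p = 0.180), in the authors' deposited table. Snrpe was at 30.4 FPKM in the knockdown and 20.5 FPKM in the control, Sf3a2 at 37.4 and 26.5 FPKM, Snrpa, the U1 protein A, at 26.3 and 33.4 FPKM, Sf3b2 at 29.4 and 35.2 FPKM and Prpf38b at 16.6 and 21.0 FPKM, each without an unadjusted p under 0.05 in the authors' deposited table. In all, 18 of 45 members had a ratio above 0 and their median log2 ratio was -0.06, against 51.3% and 0.02 over all genes at 1 FPKM or more.

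For 7SK knockdown on the somatodendritic side, none of 10 tested members was called, against 2.51% of 1954 tested genes. The lone member with an unadjusted p under 0.05, against 15.3% of all tested genes, was Sf3a3, at 29.5 FPKM in the knockdown and 14.5 FPKM in the control (log2 ratio 1.02, p = 0.0189, q = 0.203) in the authors' deposited table. Snrpa was at 43.6 FPKM in the knockdown and 30.7 FPKM in the control (p = 0.137), Sf3a2 at 31.6 and 24.4 FPKM (p = 0.355) and Snrpd2 at 63.7 and 51.5 FPKM (p = 0.329) in the authors' deposited table. At the lower end Snrpd3 was at 37.0 FPKM in the knockdown and 46.3 FPKM in the control (log2 ratio -0.32, p = 0.378), and Snrpn at 249 and 260 FPKM (log2 ratio -0.06, p = 0.818) in the authors' deposited table. A ratio above 0 was found in 32 of 45 members (71.1%), against 55.8% of all genes at 1 FPKM or more, with medians of 0.21 for the members and 0.08 for all genes. By role these were 8 of 10 U2 genes, 7 of 10 tri-snRNP and catalytic genes, 4 of 5 U1 genes and 6 of 7 Lsm1 to Lsm7 genes, but 3 of 7 Sm ring genes. Marker sums of other cells also differed in this comparison, with 131 FPKM in the knockdown and 86.3 FPKM in the control for microglia and macrophages, 163.5 and 112 FPKM for fibroblasts (1 of 9 markers called), 15.3 and 5.53 FPKM for Schwann cells, and 121.5 and 154 FPKM for other neurons in the authors' deposited table, and their part was not tested. The role counts rest mostly on members that carried no test, and no call for the set as a whole follows from them.

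**Figure D2:**
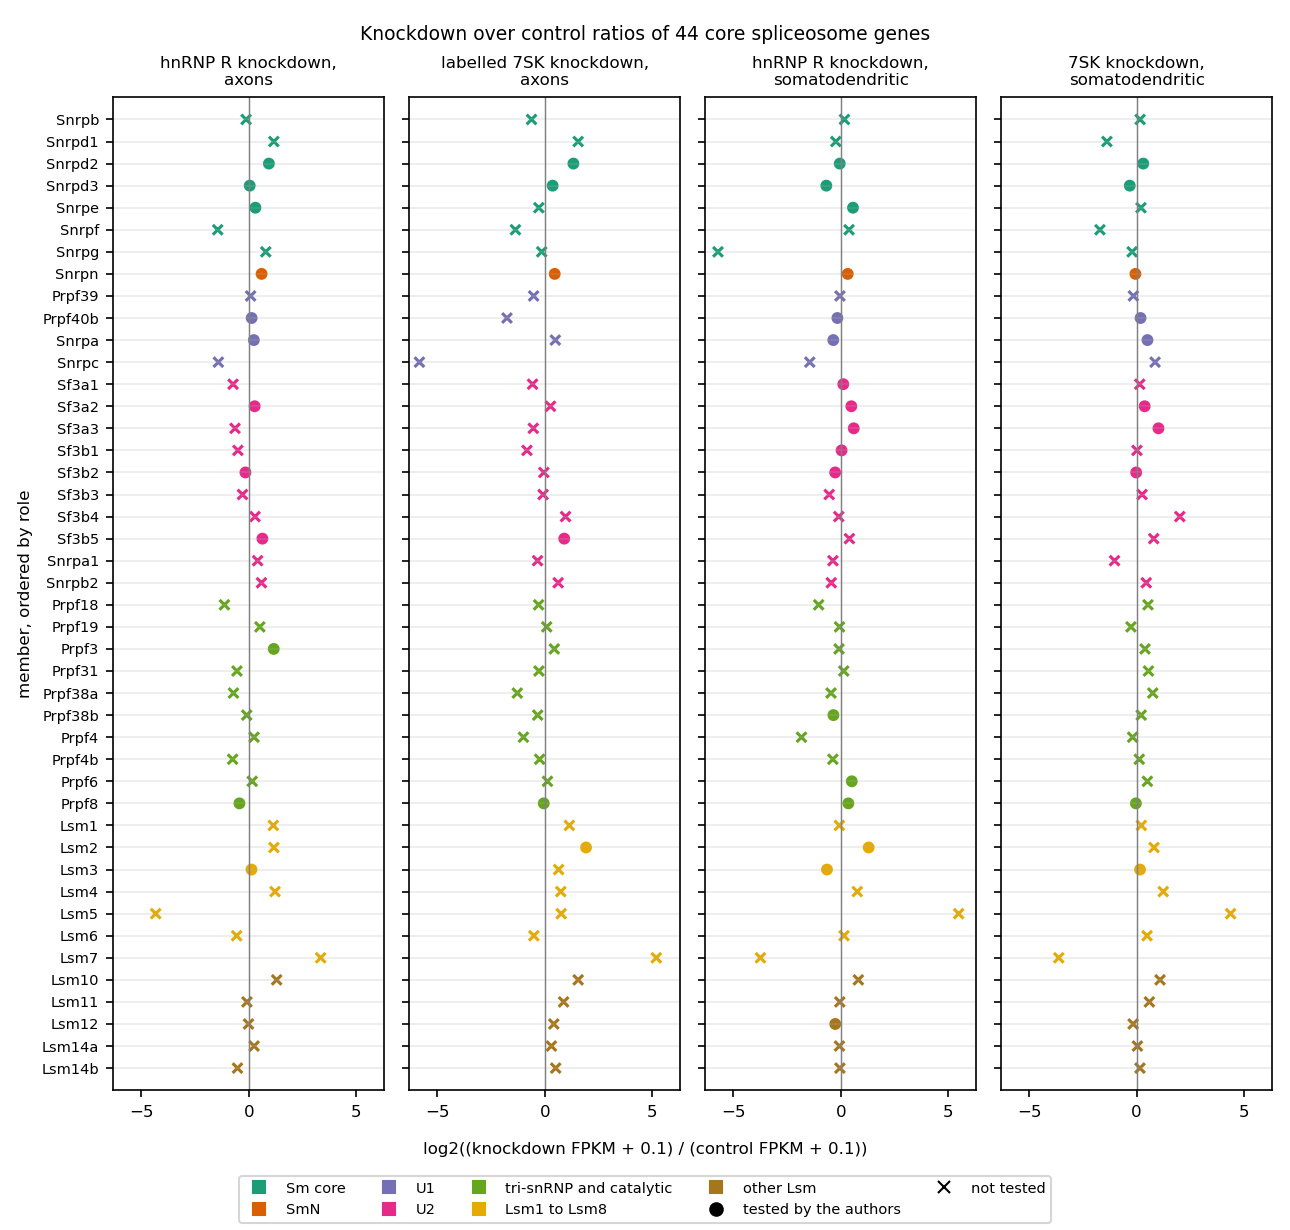
Log2 ratio of knockdown over control FPKM, with 0.1 FPKM added to each, for 44 of the 45 members (rows, ordered and coloured by role) in the 4 comparisons, circles for members the authors tested and crosses for those not tested. Most points lie close to 0, and the far points belong to weakly expressed genes that were listed at 0 in 1 group, such as Lsm5, Lsm7, Snrpg and Snrpc.

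Among the Lsm rings, which hold U6 in the nucleus and promote decapping of mRNA in the cytoplasm, Lsm2 and Lsm4 had the values below in comparisons that share 2 control groups, so the comparisons are not independent of each other. Lsm2 was at 21.0 FPKM in hnRNP R knockdown axons and 15.5 FPKM in 7SK knockdown cell bodies, without a test, against 9.31 and 8.81 FPKM in their controls in the authors' deposited tables. Lsm4 was at 19.1 FPKM in hnRNP R knockdown axons against 8.14 FPKM in the control, at 14.1 FPKM in the axon group labelled 7SK knockdown against 8.35 FPKM, at 18.6 FPKM in hnRNP R knockdown cell bodies against 10.9 FPKM and at 23.7 FPKM in 7SK knockdown cell bodies against 10.0 FPKM, in the authors' deposited tables. Lsm4 carried no test. Lsm1, the subunit particular to the cytoplasmic ring, stayed between 0.471 and 2.78 FPKM in all groups, Lsm5 was listed at 0 in 3 of the 8 group values (controls counted in each table) and Lsm7 in 4 of 8, in the authors' deposited tables. The zeros of Lsm5 lay in hnRNP R knockdown axons and control cell bodies, and those of Lsm7 in control axons and in both knockdowns of cell bodies. Lsm6, untested, was lower in both axon comparisons, at 5.19 against 7.74 FPKM for hnRNP R and 5.55 against 7.93 FPKM for the group labelled 7SK knockdown. In cell bodies it was at 9.46 against 8.49 FPKM for hnRNP R and 10.96 against 7.81 FPKM for 7SK. Lsm10, a subunit of the U7 snRNP that processes histone mRNAs, was at 9.82 FPKM in hnRNP R knockdown axons against 3.94 FPKM, at 12.1 FPKM in the axon group labelled 7SK knockdown against 4.06 FPKM, at 5.17 FPKM in hnRNP R knockdown cell bodies against 2.88 FPKM and at 5.76 FPKM in 7SK knockdown cell bodies against 2.65 FPKM, untested in the authors' deposited tables. Lsm11, also of U7 and untested, was not higher under hnRNP R knockdown, at 3.65 against 3.88 FPKM in axons and 10.43 against 10.75 FPKM in cell bodies. It was at 7.39 against 3.98 FPKM in the axon group labelled 7SK knockdown and at 14.95 against 9.89 FPKM in 7SK knockdown cell bodies.

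Of the Sm ring, Snrpd2 and Snrpd3 carried a test in all 4 comparisons. Snrpb ranged from 11.6 to 21.0 FPKM over the 8 group values, and neither it nor Snrpd1 nor Snrpf was tested. Snrpd1 was at 11.6 against 5.13 FPKM in hnRNP R knockdown axons and 15.7 against 5.29 FPKM in the axon group labelled 7SK knockdown. It was at 6.19 against 7.27 FPKM in hnRNP R and 2.50 against 6.69 FPKM in 7SK knockdown cell bodies. Snrpf, in the same order, was at 1.99 against 5.61, 2.18 against 5.78, 7.82 against 5.955 and 1.61 against 5.48 FPKM. Snrpg was listed at 0 in hnRNP R knockdown cell bodies and at 5.15 FPKM in their control in the authors' deposited table, and the U1 protein Snrpc was listed at 0 in the axon group labelled 7SK knockdown and at 5.61 FPKM in control axons. Neither was tested. In U2, Sf3b1, the largest SF3b subunit, was at 25.9 FPKM in hnRNP R knockdown cell bodies and 25.2 FPKM in the control (p = 0.787), and Sf3a1 at 24.3 and 22.4 FPKM (p = 0.712), in the authors' deposited table. The U2 proteins Snrpa1 and Snrpb2 ranged from 5.61 to 15.0 FPKM and from 5.57 to 10.9 FPKM. Prpf31 of the tri-snRNP and Prpf19, a ubiquitin ligase of the active spliceosome, were not tested in any comparison, at 10.9 to 24.4 and 11.0 to 15.9 FPKM in the authors' deposited tables. Prpf4, also of the tri-snRNP and untested, was at 1.11 FPKM in hnRNP R knockdown cell bodies, its lowest value, against 4.195 FPKM in the control in the authors' deposited table.

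**Figure D3:**
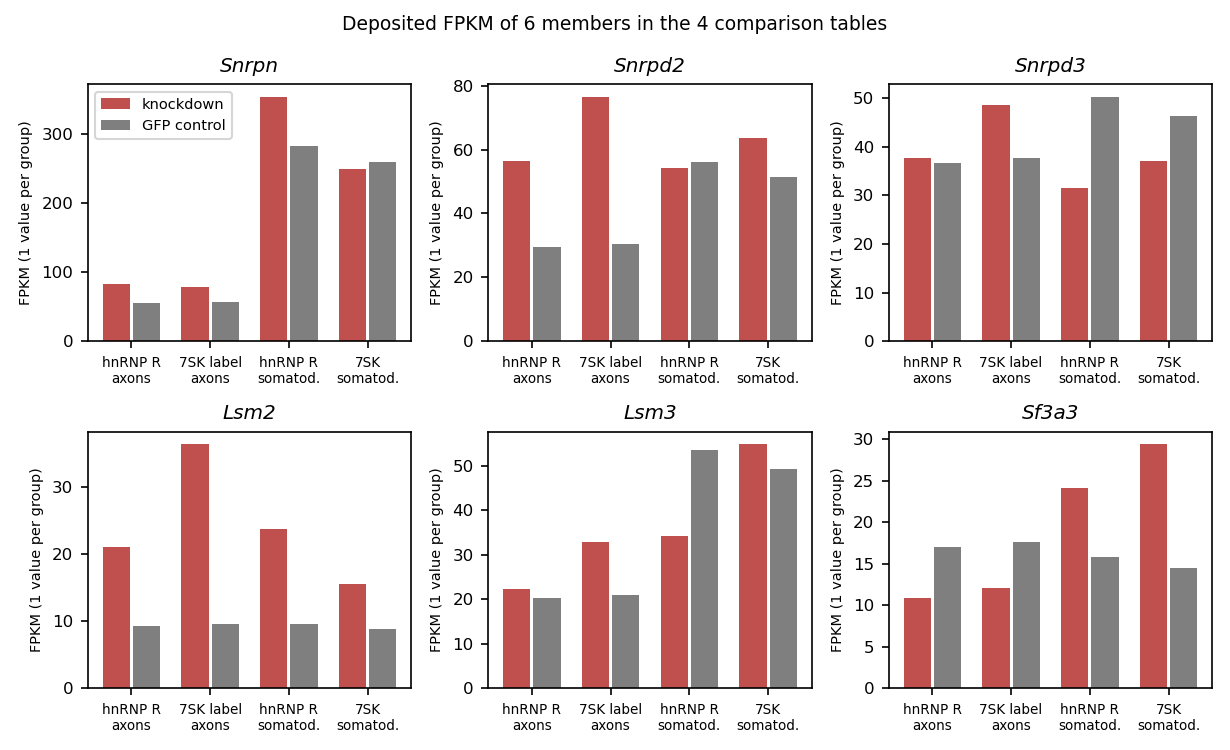
Deposited FPKM of 6 members in each knockdown group (red) and its GFP control (grey), 1 value per group and so without error bars, with bars from 0. Lsm2 is at 36.5 FPKM in the axon group labelled 7SK knockdown against 9.55 FPKM in its control, while Lsm3 and Snrpd3 are under theirs in hnRNP R knockdown cell bodies.

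The difference between the axonal and the somatodendritic effect of a knockdown was tested for members tested on both sides, with standard errors taken from the authors' p-values. None of 10 members differed for hnRNP R and none of 4 for 7SK, against 0% of 1505 and 0.450% of 888 genes. The lowest p was that of Prpf8 for hnRNP R, with a log2 ratio of -0.44 in axons and 0.36 in cell bodies (difference -0.79, SE 0.43, Benjamini-Hochberg adjusted p = 0.753). For Snrpd2 the difference was 0.98 (SE 0.58) under hnRNP R knockdown and 1.03 (SE 0.64) between the axon group labelled 7SK knockdown and the 7SK knockdown cell bodies. Over the members of both tests the standard errors ran from 0.43 to 1.01 on the log2 scale, which limits the differences that could be detected.

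Other spliceosome genes, a list of 63 covering U1, U5 and U11/U12 proteins, helicases and the exon junction complex, showed the same absence of calls. None was called of 15, 6, 18 and 13 tested, in hnRNP R knockdown axons, the axon group labelled 7SK knockdown, and hnRNP R and 7SK knockdown cell bodies, against 0.114%, 3.07%, 0.975% and 2.51% of all tested genes. At an unadjusted p under 0.05 there were 1, 0, 2 and 3, against 9.26%, 18.1%, 12.3% and 15.3% of all tested, and the 3 in 7SK knockdown cell bodies were Eftud2, the GTPase of U5, at 41.4 against 22.4 FPKM in the control, Casc3, of the exon junction complex, at 40.6 against 64.3 FPKM, and Zcrb1, of the minor spliceosome, at 27.7 against 48.6 FPKM in the authors' deposited table. Their median log2 ratios in the same order were -0.26, -0.16, -0.06 and 0.11, against 0.03, 0.07, 0.02 and 0.08 over all genes at 1 FPKM or more.

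The iCLIP libraries held cDNAs from the RNAs of these genes. Motoneurons had no IgG library, so a comparison with background was possible in NSC34 cells alone. Libraries held between 2796 and 456721 cDNAs, and each of the 44 members had at least 1 cDNA in the motoneuron libraries and in the antibody 1 libraries of NSC34 cells. Members received 450 of 359005 and 348 of 319381 cDNAs in the motoneuron replicates (0.125%, 95% Wilson interval 0.114 to 0.138, and 0.109%, 0.0981 to 0.121). In NSC34 replicates they received 1077 of 456721 and 197 of 99762 cDNAs (0.236%, 0.222 to 0.2503, and 0.198%, 0.172 to 0.227), and with IgG 77 of 36280 (0.212%, 0.170 to 0.265). Both motoneuron shares were under both NSC34 shares, and the mean difference was -0.0995 percentage points (2 against 2 libraries, exact two-sided permutation test p = 0.333, the smallest this design allows). As a log2 ratio of the mean shares this was -0.89, and with library totals alone the median log2 ratio was -0.86 over all 9567 genes fitted and -1.28 over the 34 members among them, so the median gene was lower in motoneurons as well. The share with IgG lay between those of the NSC34 replicates, so no enrichment of the members by the hnRNP R antibody was seen in NSC34 cells. The title alone identifies the IgG library, since its header names hnRNP R and carries the library number of NSC34 replicate 2. Intervals here cover counting error only.

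Member cDNAs were unevenly spread, and the 5 highest members held 41.3% of the 2664 member cDNAs over all 11 libraries. Across the 44 members the cDNA count followed gene length, with Spearman's rho of 0.805 in motoneurons and 0.794 in NSC34 cells as a description. Over the 4 motoneuron libraries the members with most cDNAs included Sf3b1 (141), Snrpn (107), and the U1-associated Prpf39 (64) and Prpf40b (58). Over the 4 antibody 1 libraries of NSC34 cells they included Prpf39 (120), Sf3b1 (117), Sf3b3 (102) and Lsm14a, a protein of mRNA processing bodies (97). Scaled to each library's total, Prpf39, Sf3b3 and Lsm14a had more cDNAs with IgG than in either NSC34 replicate, and Sf3b1 had fewer. Their log2 ratios of antibody over IgG in edgeR were -0.28, -0.006, -0.16 and 1.1 in that order. These counts therefore rank members and do not show binding above background. Per kilobase of gene the order changed, and Prpf38b was highest in both, with 4.97 cDNAs per kb in motoneurons and 10.7 in NSC34 cells. Snrpn followed it in motoneurons at 4.73 cDNAs per kb, whereas in NSC34 cells it was at 0.885, under the members' median there. Densities were not scaled to the cDNA totals of the libraries, so they rank genes within a cell type and do not compare cell types. Median densities of the members were 1.03 and 1.34 cDNAs per kb, against 0.0952 and 0.0733 over all 22439 protein-coding genes, many of which have no cDNA.

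Between the cell types the lowest p of any member in edgeR with TMM scaling was that of Snrpn. With library totals alone Snrpd3 and other members had lower ones. Snrpn received 35 and 34 cDNAs in the motoneuron replicates, against 17 and 2 in the NSC34 replicates and 3 with IgG (97.5 and 106 CPM, the count scaled to the library's total of cDNAs, against 37.2, 20.0 and 82.7 CPM). Both motoneuron values were above both NSC34 values. The IgG value was also above both NSC34 values, and the log2 ratio of antibody over IgG in NSC34 cells was -1.04. Motoneurons had no IgG library, so crosslinking of Snrpn above background was not shown in either cell type. In edgeR's quasi-likelihood test its log2 ratio of motoneurons over NSC34 cells was 2.54 (SE 0.44, adjusted p = 1.37e-06 with Benjamini-Hochberg). Its gene in these files lies at mm9 chr7:67127387-67149996 on the minus strand. Of its 69 cDNAs in the 2 motoneuron replicates 37 were in the 3′ UTR, 31 in introns and 1 in the ORF, whereas of 19 in NSC34 cells 12 were in introns, 4 in the 3′ UTR and 3 in the ORF. Snrpn RNA was also the most abundant member in motoneuron cultures, and the RNA level of NSC34 cells was not analysed here.

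Among 34 members fitted 3 were called, 2 higher and 1 lower in motoneurons, against 37.3% of 9567 genes fitted, of which 23.4% were higher and 13.9% lower. At an unadjusted p under 0.05 there were 7 members, against 44.8% of genes. The calls were Snrpn, Prpf4b, a spliceosomal kinase, and Snrpd3. Prpf4b had 15 and 16 cDNAs in motoneurons and 18 and 3 in NSC34 cells (log2 ratio 1.23, SE 0.50, edgeR adjusted p = 0.0453). Snrpd3 had 3 and 11 cDNAs in motoneurons and 51 and 8 in NSC34 cells (log2 ratio -1.34, SE 0.50, edgeR adjusted p = 0.0291). The scaling decided many calls, because motoneuron libraries had TMM factors of 0.629 and 0.666 and NSC34 libraries 1.27 and 1.23. With library totals alone the median log2 ratio of all genes was -0.86, against 0.08 with TMM, the share of all calls that were higher was 27.4%, against 62.7% with TMM, and 14 members were called, 1 higher and 13 lower. On that scale Snrpn remained higher (log2 ratio 1.59, adjusted p = 0.00196) and Snrpd3 lower (-2.28, adjusted p = 2.20e-05), whereas Prpf4b was at 0.28 (adjusted p = 0.669), all from edgeR. Relative to the median of all genes 13 of 34 members lay above it under either scaling. Leaving out NSC34 replicate 1, the deepest library, left Snrpn as the single call, as did DESeq2. The call of Snrpd3 was also lost without motoneuron replicate 1 and without NSC34 replicate 2. That of Prpf4b was lost whichever of the 4 libraries was left out, with the replicate block and under both other filters on low counts.

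**Figure D4:**
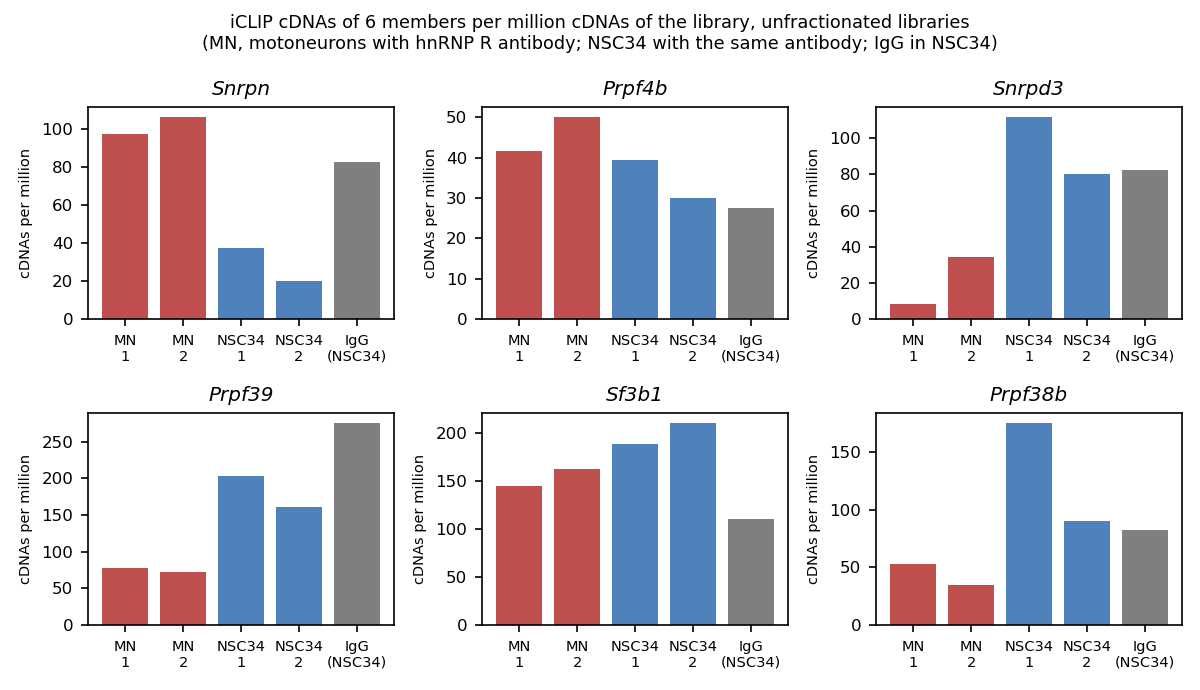
cDNA counts in CPM (y axis, scaled to each library's total) for 6 members, in motoneuron (red), NSC34 (blue) and IgG (grey) libraries, bars from 0, 1 bar per library, with no TMM factor applied. Snrpn is at 97.5 and 106 in motoneurons, against 37.2 and 20.0 in NSC34 cells, while Snrpd3 and Prpf38b are higher in both NSC34 libraries.

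The antibody against hnRNP R was compared with IgG in NSC34 cells to ask whether members were bound above background. No member was called of 34 fitted, against 0.533% of 9567 genes, and 2 had an unadjusted p under 0.05 in edgeR, against 10.3% of genes. Lsm8, the subunit particular to the nuclear Lsm ring, had 30 and 3 cDNAs with hnRNP R antibody and 0 of 36280 with IgG, which allows up to 82.7 CPM, above the 65.7 and 30.1 CPM in the NSC34 replicates. Prpf19 had 6 and 1 cDNAs with the antibody and 4 with IgG (log2 ratio -2.83, SE 1.23, edgeR adjusted p = 0.382). IgG had a single library, so the test assumes that it varies like the others. With 77 member cDNAs in it, a difference would have had to be large to be detected.

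Within the genes, member cDNAs were less intronic and lay more in ORFs than those of all protein-coding genes. Introns held 75.6% and 74.4% of member cDNAs in the motoneuron replicates (Wilson intervals 71.4 to 79.3 and 69.6 to 78.7), against 90.9% and 89.1% over all protein-coding genes. In NSC34 replicates they held 71.7% and 70.6% (68.9 to 74.3 and 63.9 to 76.5), against 82.2% and 80.9%. With IgG it was 63.6% (52.5 to 73.5), against 78.5%, so the lower intron share of the members was present without the specific antibody as well. ORFs held 9.11% and 10.6% of member cDNAs in motoneurons, 19.0% and 17.8% in NSC34 cells and 22.1% with IgG, against 3.17%, 3.58%, 7.40%, 8.00% and 12.7% over all protein-coding genes. Gene length moved with this, since the median member spans 15.2 kb, against 30.4 kb for protein-coding genes with a cDNA in motoneurons and 27.1 kb in NSC34 cells. Counted over cDNAs, the median member cDNA of the motoneuron replicates lay in a gene of 27.05 kb, against 239 kb for all protein-coding genes. In the NSC34 replicates these lengths were 22.8 and 83.7 kb. The part of gene length was not tested. The 3′ UTR share was 15.3% and 14.9% in motoneurons, where Snrpn gave 37 of the 69 and 52 cDNAs summed, and 9.10% and 11.7% in NSC34 cells, against 5.75%, 7.16%, 10.05% and 10.75% over all protein-coding genes in the same libraries.

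Single members differed widely in where their cDNAs lay. In Prpf38b (mm9 chr3:108705584-108714644, minus strand) 16 of 30 motoneuron and 53 of 89 NSC34 cDNAs were in the ORF, and 14 and 36 in introns. Lsm8 had 4 of its 7 motoneuron and 26 of its 33 NSC34 cDNAs in the ORF. Of the 205 and 35 ORF cDNAs of members in the NSC34 replicates, summed, Prpf38b gave 53 and Lsm8 26. By contrast, Snrpd3 had 12 of 14 motoneuron and 56 of 59 NSC34 cDNAs in introns. Sf3b1 differed between the cell types, with 96 of 104 motoneuron cDNAs in introns and 3 in the ORF. In NSC34 cells 81 of its 107 cDNAs were in introns and 25 in the ORF.

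**Figure D5:**
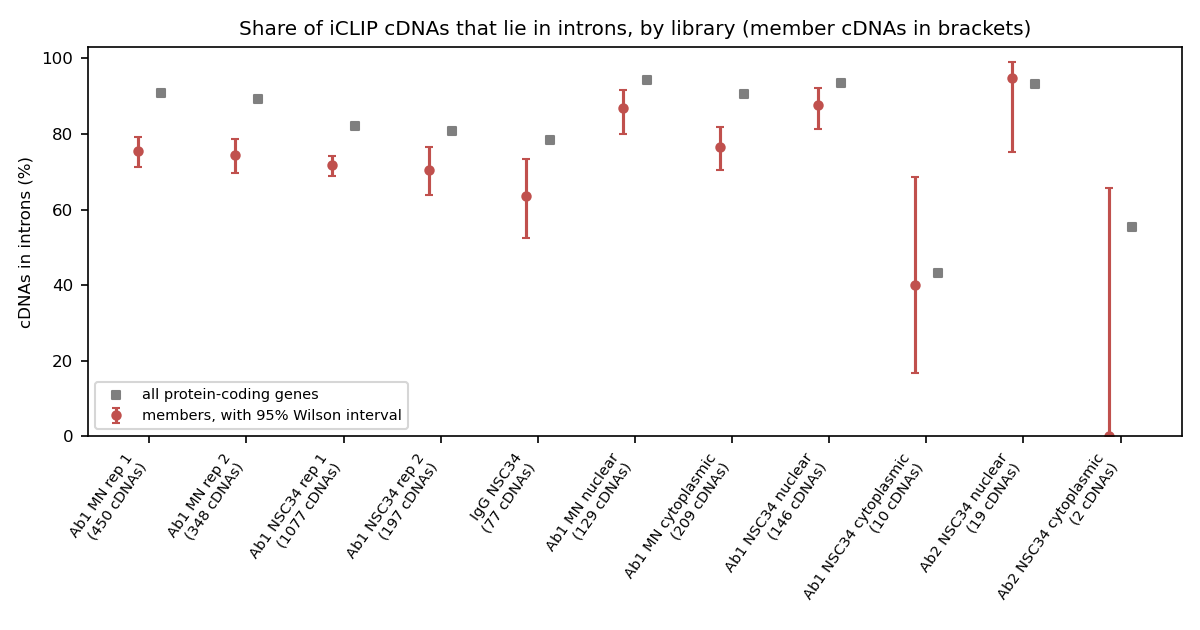
Share of cDNAs in introns (y axis, percent) for each of the 11 libraries, members with 95% Wilson intervals (red) beside all protein-coding genes (grey squares), with the number of member cDNAs under each name. Members lie under all protein-coding genes in the 5 unfractionated libraries, and 2 cytoplasmic NSC34 libraries hold 10 and 2 member cDNAs.

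Nuclear and cytoplasmic fractions formed 3 pairs of the same cells and antibody. In motoneurons the members received 129 of 91302 nuclear and 209 of 194816 cytoplasmic cDNAs (0.141%, Wilson interval 0.119 to 0.168, and 0.107%, 0.0937 to 0.123). With antibody 1 in NSC34 cells they received 146 of 48398 nuclear and 10 of 3569 cytoplasmic cDNAs (0.302% and 0.280%), and with antibody 2 they received 19 of 7493 nuclear and 2 of 2796 cytoplasmic cDNAs (0.254% and 0.0715%). The nuclear share was higher in all 3 pairs, by 0.0792 percentage points on average (exact sign-flip permutation test, two-sided p = 0.25, the smallest 3 pairs allow). Without the antibody 2 pair, whose cytoplasmic library held 2 member cDNAs, the mean was 0.0277. With protein-coding genes as the denominator the mean difference was 0.0150 percentage points (p = 0.750, same exact test), and the antibody 1 pair of NSC34 cells turned round, with 0.312% nuclear and 0.472% cytoplasmic. Introns held 86.8% of nuclear and 76.6% of cytoplasmic member cDNAs in motoneurons, and 87.7% and 40.0% with antibody 1 in NSC34 cells, the 40.0% resting on 4 of 10 cDNAs (Wilson interval 16.8 to 68.7). For antibody 2 it was 18 of 19 nuclear and 0 of 2 cytoplasmic cDNAs. The mean difference was 50.9 percentage points (exact sign-flip permutation test p = 0.25). Without the antibody 2 pair, with its 2 cytoplasmic member cDNAs, it was 29.0 percentage points. All protein-coding genes went the same way, with 94.3% in nuclear and 90.6% in cytoplasmic motoneuron libraries, 93.4% and 43.2% with antibody 1 in NSC34 cells and 93.1% and 55.4% with antibody 2. Their mean difference over the 3 pairs was 30.6 percentage points.

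No member of 16 fitted was called between the fractions, nor was any of 5177 genes (0%) in edgeR's quasi-likelihood test. At an unadjusted p under 0.05 there was no member, against 0.522% of all genes, and DESeq2 called no member either. Snrpn had 9 nuclear and 29 cytoplasmic cDNAs in motoneurons, which were 98.6 and 149 CPM, and Sf3b1 had 9 and 28, which were 98.6 and 144 CPM. Sf3b3 had 26 nuclear cDNAs (537 CPM) with antibody 1 in NSC34 cells and 0 of 3569 cytoplasmic cDNAs, which allows up to 841 CPM. The cytoplasmic NSC34 libraries were too shallow for single members to be compared.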

How the data were processed

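Members and gene lists were chosen with earlier results of these data known. Per the submitters' processing notes, FastQC 0.10.1 and Cufflinks 2.2.1 were used on build GRCm38, with no aligner named there. The authors deposited 1 FPKM value per group, the log2 ratio of knockdown over control, and a p-value and q-value for each tested gene, in 4 tables scaled separately. The score in the deposited tables is the authors' test statistic and was not used. Calls took the authors' q under 0.05. Medians used log2 ratios with 0.1 FPKM added, over genes at 1 FPKM or more in either group. Differences between compartments used an approximate z test.

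The iCLIP values are counts of cDNAs per gene and gene part deposited by the authors, on mm9 with Ensembl 59 per the file headers. 1254 other per-sample columns were not used here. Genes with 10 cDNAs or more over a fit's libraries entered edgeR 4.0.16 (R 4.3.3, TMM scaling, quasi-likelihood test, Benjamini-Hochberg at 0.05), with a block per nuclear and cytoplasmic pair, paired by titles. DESeq2 1.42.0, other filters and scalings and left-out libraries were alternatives. Fits were tested on simulated counts with 8-fold changes, placed only in genes with high counts, which most members lack. The fit recovered 98.5% of them for motoneurons against NSC34 cells, 51% for hnRNP R against IgG and 41% for nuclear against cytoplasmic. The fits against IgG and between fractions could therefore miss large changes. Replicates of a cell type differed by more than sampling noise (chi-square over degrees of freedom 3.08 in motoneurons, 2.28 in NSC34 cells). Nothing says that they came from separate cultures, so p-values measure the spread between these libraries.

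1 member's own values are not reported here, though it is in all counts of the set. Other named members were drawn from those called in any comparison, the 5 highest and lowest ratios among tested members, the 5 with most cDNAs in each cell type, and a fixed set by role. Not every value that falls under these rules is printed, such as those of Prpf40b in the RNA comparisons. Prpf38b, Lsm10, Lsm11 and Lsm14a values beyond these were chosen after being seen.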

Additional observations from a re-analysis of the deposited data

How the results depend on the processing

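Of 87 alternative values over 17 results, 77 stayed within 1.5 times for a count or 0.1 for a median log2 ratio, or met the rule for a share. Under that rule a share difference had to keep its direction. With a library or pair left out it also had to lie within 1 standard deviation of the main value. No threshold entered, as the exact tests could not reach 0.05. The nuclear difference in member share counted as kept at 0.0150 percentage points with protein-coding genes as the denominator, against 0.0792. Over members with a completed test the median log2 ratio was 0.25 in hnRNP R knockdown axons, 0.68 for the axon group labelled 7SK knockdown, and 0.04 in hnRNP R knockdown cell bodies, opposite in sign to -0.06 over the whole set. The medians of all tested genes were 0.14, 0.23 and 0.02. Only the more abundant genes enter there. With an unadjusted p under 0.05 the members counted were 2 in the axon group labelled 7SK knockdown, 3 in hnRNP R and 1 in 7SK knockdown cell bodies, 7 in motoneurons against NSC34 cells and 2 against IgG. Between motoneurons and NSC34 cells DESeq2 called 1 member, library totals without TMM factors (added after seeing the data) 14, and leaving out 1 library each 1 to 4. Snrpn was called in all of these, a lone library being assumed to vary like the other groups. The replicate number as a block gave 2 calls (Snrpn and Snrpd3), and same-numbered libraries shared only a number (correlation of deviations 0.014 over 9407 genes). Without the block for nuclear and cytoplasmic pairs the count stayed 0. Leaving out 1 library, the difference in member share between motoneurons and NSC34 cells ran from -0.119 to -0.0803 percentage points and that in intron share from 3.31 to 4.44. Leaving out 1 pair, the nuclear difference ran from 0.0277 to 0.108 in member share and from 29.0 to 71.2 in intron share. No paired analysis was possible because the RNA tables hold 1 value per group. RNA depth is unknown, and cytoplasmic NSC34 libraries of 3569 and 2796 cDNAs limit the fraction comparison.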
